A study of Homo sapiens with 8 samples.

Results

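WNT proteins are secreted signals that bind Frizzled receptors and the co-receptors LRP5 and LRP6, after which β-catenin is spared from degradation and acts with TCF and LEF factors in the nucleus. The pathway is held in check outside the cell by secreted antagonists. The secreted frizzled-related proteins and WNT inhibitory factor 1 bind WNT itself, and Dickkopf proteins of the DKK1 type occupy the co-receptor. Inside the cell it is held in check by genes that β-catenin switches on, such as AXIN2. The genes described here are 10 such antagonists and feedback targets, SFRP1, SFRP2, SFRP4, FRZB, DKK1, DKK3, WIF1, AXIN2, LGR5 and NKD1. They were taken by gene name from the array annotation, among 36337 gene names, and they have 13 of its 50599 probes. DKK3, AXIN2 and SFRP4 have 2 probes each and the other 7 genes have 1.

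RNA was measured on 8 single-colour Agilent arrays, 2 for each of 4 groups. Nthy-ori 3-1 is a line of immortalized thyroid follicular cells from normal tissue. It received either pre-miR-375, which supplies the miRNA miR-375 as a synthetic precursor, or a control, at 5 nM per the labels. TT is a line from a medullary thyroid carcinoma, a tumour of the calcitonin-producing C cells, and received either antagomiR-375, which blocks the same miRNA by antisense pairing, or a control, at 20 nM per the labels. The study's methods give higher concentrations for both reagents. All cells were taken 48 h after transfection. The labels call both control groups CTL and name no reagent. The general transfection methods list pre-miR-CTL and antagomiR-CTL, and the account of the arrays names pre-miR-CTL alone, so the reagent of the TT controls is not settled. The study set the 2 treatments side by side to find predicted miR-375 targets that were lower with pre-miR-375 and higher with antagomiR-375. It also drew on public data of thyroid cancer cell lines.

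A probe was taken as well above background where Feature Extraction flagged it so on the array, and as measured in a comparison where this held on both arrays of at least 1 group compared. Between 51.6% and 61.1% of probes were well above background per array. Within a line, arrays with the same replicate number shared a slide, and each of the 4 slides held 1 line. Titles and descriptions number the TT replicates differently but join the same arrays into pairs. By the labels, RNA integrity numbers were 9 except in TT control cells, where both were 8, so that RNA integrity and treatment cannot be told apart in TT cells. Of 7 C cell and neuroendocrine markers on the array, all 7 were well above background on both arrays of each TT group. In Nthy-ori 3-1 control cells 1 of the 7 was, RET. Of 8 thyroid follicular markers, 4 were well above background on both Nthy-ori 3-1 control arrays, and NKX2-1 was on none. In TT control cells 6 of these 8 were, NKX2-1 among them. The log2 of the list's summed signal was 12.44 to 12.56 there against 11.08 to 11.15 in Nthy-ori 3-1 control cells. Each sum rests largely on 1 gene, NKX2-1 (mean 12.28) in TT and PAX8 (mean 10.68) in Nthy-ori 3-1 control cells. The markers went both ways. TG (9.13 against 4.87), NKX2-1 and DIO1 were higher in TT control cells, and PAX8 (5.42 there) and FOXE1 (1.94 against 8.76) were lower. All signals below are log2 normalized signals of bulk RNA, in which fewer cells with a transcript and less of it per cell cannot be told apart.

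The miRNA that both treatments address is shown first because its bases 2 to 8, the seed, are the part that pairs with target transcripts. The mature sequence is that of RefSeq, chr2:219001648-219001669 on the minus strand of GRCh38.p14, with the seed in capitals. The array has 0 probes for MIR375, so the miRNA itself was not measured on it.
hsa-miR-375-3p: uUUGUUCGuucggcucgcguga

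SFRP1 is a secreted decoy whose cysteine-rich domain resembles that of Frizzled receptors. Its signal was lower in the Nthy-ori 3-1 line with pre-miR-375 and higher in the TT line with antagomiR-375. Its probe is A_23_P10121 (NM_003012), at chr8:41120161-41120220 of hg19 on the minus strand, and was printed in 10 spots on each array. It was well above background on all 8 arrays. In Nthy-ori 3-1 cells its signal was 7.91 and 9.22 on the control arrays and 5.95 and 6.69 with pre-miR-375. Both treated arrays lay below both controls, although the controls differed from each other by more than the treated arrays did. In TT cells the signal was 7.37 and 7.72 on the control arrays and 8.95 and 8.97 with antagomiR-375. Both treated arrays lay above both controls. Over the spots of 1 array the standard deviation was 0.0444 to 0.157, a technical spread that leaves out the spread between replicates, 0.931 in the Nthy-ori 3-1 controls.

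Within pairs of arrays from the same slide, SFRP1 was lower by 1.95 and 2.53 with pre-miR-375, given as -1.95 and -2.53 in the fit. Its fitted difference was -2.24 (SE 0.22, n = 2 per group), a 4.73-fold lower signal, with an adjusted p of 0.318 from limma. With antagomiR-375 it was higher by 1.57 and 1.25 in the pairs, and the fitted difference was 1.41 (SE 0.138, n = 2 per group), 2.66-fold, with an adjusted p of 0.512 from limma. Neither passed the threshold of 0.05. No probe of the array did: limma called 0 of 50594 probes in Nthy-ori 3-1 cells and 0 of 50587 in TT cells (0% in each), with 7257 (14.3%) and 4920 (9.73%) at an unadjusted p under 0.05. Among these were 3 and 2 of the 13 member probes. In TT cells the 2 were SFRP1 and SFRP2, and SFRP2 was well above background on no array. Each of these fits has 1 residual degree of freedom. An exact permutation test of 1 gene in 2 against 2 arrays cannot give a two-sided p below 0.333.

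Other treatments of the same intensities gave limma more calls in Nthy-ori 3-1 cells, and SFRP1 passed under 2 of them. It was -1.62 at an adjusted p of 0.045 after normexp background correction, where limma called 1560 probes. It was -2.24 at an adjusted p of 0.0435 with dim probes left out, where limma called 999. In TT cells it passed under none of 12 alternatives, with differences of 1.15 to 1.57 and adjusted p from limma of 0.058 to 0.571. The difference between the effects in the 2 lines was itself tested. Pre-miR-375 supplies the miRNA and antagomiR-375 blocks it, so a large value does not show that the lines differ in their response. The effect in Nthy-ori 3-1 cells minus that in TT cells was -3.66 (SE 0.288), with an unadjusted p of 0.000781. After adjustment in limma the p was 0.149. It passed with normexp correction, with the median signal, with the deposited values and with a variance trend, at adjusted p of 0.0137, 0.0153, 0.0165 and 0.0374 from limma. In the main setting limma called 0% of 50582 probes for that difference, with 8405 (16.6%) at an unadjusted p under 0.05, 3 member probes among them.

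**Figure D1:**
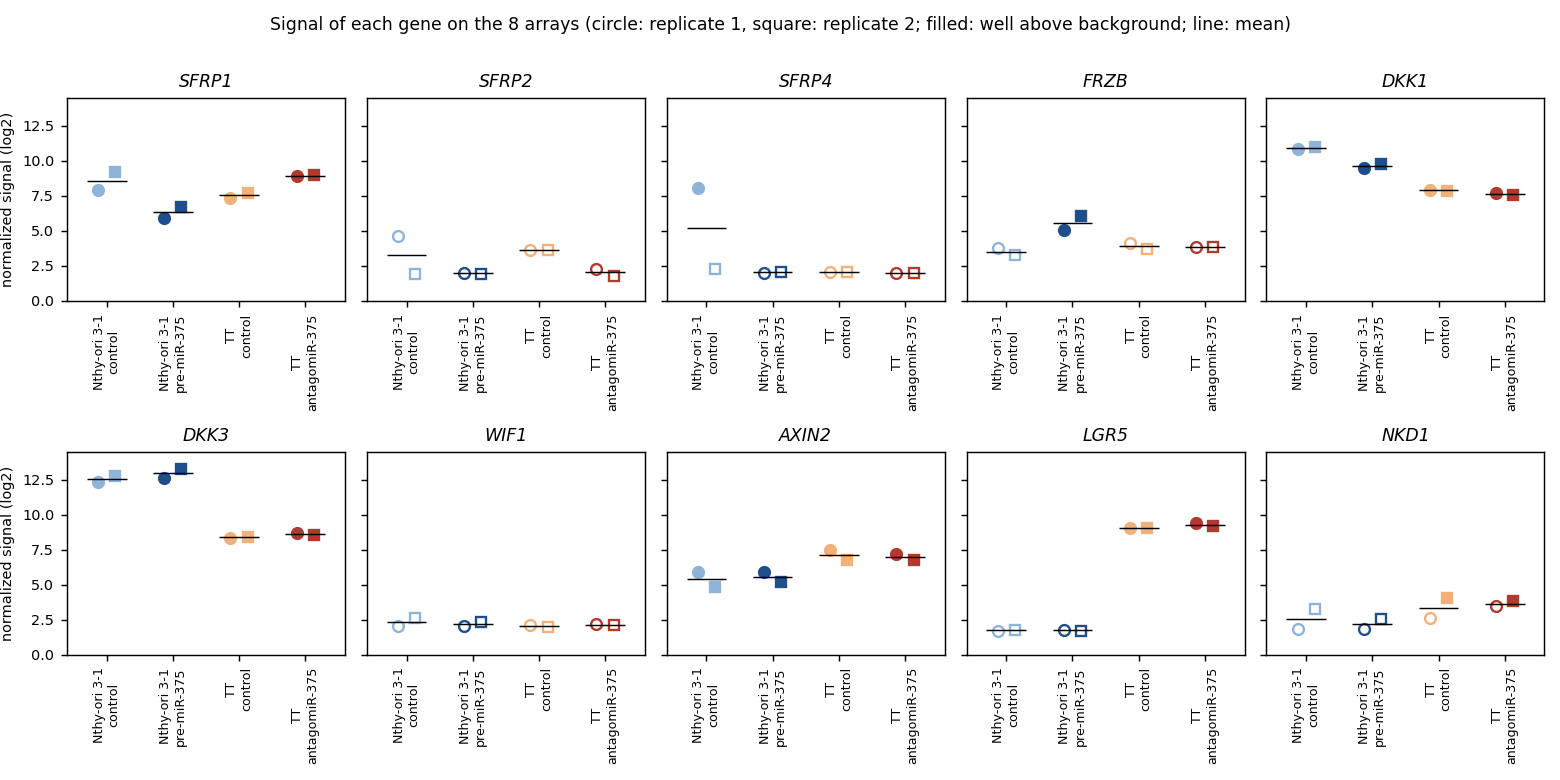
Log2 normalized signal (vertical axis) of each of the 10 genes on the 8 arrays, by group (horizontal axis). Circles are replicate 1, squares replicate 2, lines are group means, and hollow symbols are arrays on which the probe was not well above background; the probe with the highest average stands for genes with 2 probes. SFRP1 is lower with pre-miR-375 and higher with antagomiR-375, and LGR5 is filled only on the 4 TT arrays.

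The other frizzled-related proteins gave little signal. SFRP2, a relative of SFRP1, was well above background on 0 of 8 arrays, with signals of 4.61 and 1.92 in Nthy-ori 3-1 control cells, 1.99 and 1.96 with pre-miR-375, 3.63 and 3.64 in TT control cells, and 2.29 and 1.80 with antagomiR-375. No fold is given for it. SFRP4 was well above background on 1 of 8 arrays by probe A_33_P3335177 and on 0 of 8 by probe A_21_P0011967, whose group means were 1.79 to 1.88. The 1 array was Nthy-ori 3-1 control replicate 1, at 8.05, against 2.30 on replicate 2 and group means of 2.02 to 2.07 in the other 3 groups. A high value on 1 array of a pair, seen by 1 of its 2 probes, is all there is for SFRP4. WIF1, which binds WNT through a domain of its own, was well above background on 0 of 8 arrays, with group means of 2.05 to 2.32.

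FRZB, also called SFRP3, was well above background on both arrays with pre-miR-375 and on none of the other 6. Its probe is A_23_P363778, chr2:183699620-183699679 of hg19. The signals were 3.78 and 3.29 in Nthy-ori 3-1 control cells and 5.07 and 6.05 with pre-miR-375. The groups did not overlap. In TT cells they were 4.12 and 3.70 on control arrays and 3.87 and 3.88 with antagomiR-375, and these overlap. Against the lowest signal well above background on the control arrays, FRZB was at least 2.3-fold higher with pre-miR-375 in the main setting. The adjusted p was 0.368 from limma on the measured means of 3.53 and 5.56. It counts as measured only through the treated group. FRZB passed under none of 12 alternatives in Nthy-ori 3-1 cells, with differences of 0.53 to 2.76. The smallest lies below that bound, which was not recomputed.

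Signal of C cell and neuroendocrine markers differed beside that of FRZB. With pre-miR-375, 6 of the 7 were well above background on both Nthy-ori 3-1 arrays, against 1 of 7 in the control cells, and the log2 of the list's summed signal was 9.16 to 9.27 against 7.05 to 7.13. CALCA, the calcitonin gene, had signals of 8.12 and 4.51 there, against 18.49 and 18.61 in TT control cells. SCG2, a secretory granule protein, had 6.72 and 8.42. LGR5, which gave strong signal in TT cells, was well above background on no Nthy-ori 3-1 array. The part of these markers in the FRZB result was not tested.

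DKK1 binds LRP5 and LRP6 and so blocks the co-receptor. Its signal was lower with pre-miR-375 and differed much less with antagomiR-375. The probe, A_23_P24129, lies at chr10:54076687-54076746 of hg19 on the plus strand. In Nthy-ori 3-1 cells the signals were 10.88 and 10.99 on control arrays and 9.48 and 9.78 with pre-miR-375. Both treated arrays lay below both controls, by more than the spread of either group. In the pairs the differences were -1.40 and -1.22, and the fit gave -1.31 (SE 0.102, n = 2 per group), 2.47-fold lower, with an adjusted p of 0.318 from limma. DKK1 passed under 4 of 12 alternatives, with adjusted p from limma of 0.027 with normexp, 0.0439 with the median signal, 0.0432 with the deposited values and 0.0444 with dim probes left out. In TT cells the signals were 7.90 and 7.88 on control arrays and 7.68 and 7.55 with antagomiR-375. These groups did not overlap either, and the fit gave -0.27 (SE 0.0915), with an adjusted p of 0.535 from limma. The difference between the 2 effects was -1.04 (SE 0.146), with an adjusted p of 0.155 from limma in the main setting and 0.0188 to 0.0345 in the 3 alternatives under which it passed. As for SFRP1, this difference sets opposite treatments against each other and does not compare the lines under the same treatment.

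DKK1 is also a known target of β-catenin, so its promoter was searched for a single form of the letters that TCF and LEF factors recognise. Other forms were not searched for. RefSeq promoters, 250 bases before to 50 after the start on GRCh38.p14, were searched in 5 of the 10 genes, SFRP2, SFRP4, FRZB, DKK1 and WIF1. The SFRP1 promoter was not searched. CTTTGAA, read on both strands, was found in DKK1 alone of these 5, and in 4.43% of all 35116 promoters. The match, in capitals, starts 95 bases before the start on the plus strand, in the window chr10:52314175-52314204 of GRCh38.p14. It is a match of letters, and binding was not measured.
DKK1: ccctcccagcgCTTTGAAatcccatcccgg

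DKK3 is a diverged Dickkopf protein, widely described as silenced in tumours, and it differed between the lines far more than between treatments. By probe A_24_P261417 (chr11:11984915-11984974 of hg19) the signals in Nthy-ori 3-1 cells were 12.36 and 12.73 on control arrays and 12.64 and 13.27 with pre-miR-375. These overlap. In TT cells they were 8.35 and 8.41 on control arrays and 8.69 and 8.56 with antagomiR-375. The treated arrays lay above the controls, by 0.25 in the fit (SE 0.105), with an adjusted p of 0.583 from limma. The other probe, A_33_P3261293, gave differences of 0.36 with pre-miR-375 and 0.07 with antagomiR-375, and its replicates lay up to 1.96 apart within a group, 9.34 and 11.30 in Nthy-ori 3-1 control cells.

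Among the feedback targets, only AXIN2 was measured in both lines, and by 1 of its probes. AXIN2 is a scaffold of the complex that degrades β-catenin and is widely used as a readout of the pathway. By probe A_24_P298027 (chr17:63554388-63554447 of hg19) its signals were 5.93 and 4.86 in Nthy-ori 3-1 control cells and 5.93 and 5.17 with pre-miR-375, a fitted difference of 0.16 (SE 0.135). In TT cells they were 7.48 and 6.77 on control arrays and 7.21 and 6.78 with antagomiR-375, a fitted difference of -0.13 (SE 0.127). The groups overlapped in both lines. Its other probe, A_23_P148015 (chr17:63525389-63525448), gave 5.63 and 5.65 in TT control cells and 6.21 and 5.95 with antagomiR-375, a fitted difference of 0.44 (SE 0.124) with an adjusted p of 0.516 from limma. The AXIN2 probes thus differ in sign in TT cells, and neither passed. In Nthy-ori 3-1 cells that probe was well above background on the replicate 2 arrays alone.

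LGR5, a receptor for the R-spondins that strengthen WNT signals, was well above background on all 4 TT arrays and on no Nthy-ori 3-1 array. In TT cells the signals were 9.07 and 9.03 on control arrays and 9.39 and 9.17 with antagomiR-375. The treated arrays lay above the controls by 0.23 in the fit (SE 0.101), with an adjusted p of 0.597 from limma. NKD1, which binds Dishevelled and dampens the pathway, was well above background on 2 of 8 arrays, TT control replicate 2 at 4.06 and antagomiR-375 replicate 2 at 3.81. The partners of these arrays gave 2.62 and 3.47, so that replicates disagreed on whether NKD1 could be measured.

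Counted together, 6 of the 13 probes, for 5 of the 10 genes, were measured in Nthy-ori 3-1 cells. A log2 difference of at least 1 in both pairs was seen for 2 of them below the control, SFRP1 and DKK1, and for 1 above it, FRZB. FRZB counts as measured only through the treated group. Over all 26323 measured probes of that line, 2.5% were lower and 1.46% higher by this rule. The members, like the lists below, were chosen with earlier results of these data known, so such shares are given for scale only. In TT cells 7 probes for 5 genes were measured. By the lower limit of 0.6 that the study used there, 1 was higher in both pairs, SFRP1, and 0 were lower, beside 2.35% and 1.52% of 29150 measured probes. Groups without overlap are a weak criterion with 2 arrays each. In Nthy-ori 3-1 cells 1 member probe lay higher without overlap and 2 lower, where 19.7% and 18.2% of measured probes did. In TT cells 4 member probes lay higher without overlap and 1 lower, where 21.7% and 23.4% of measured probes did.

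**Figure D2:**
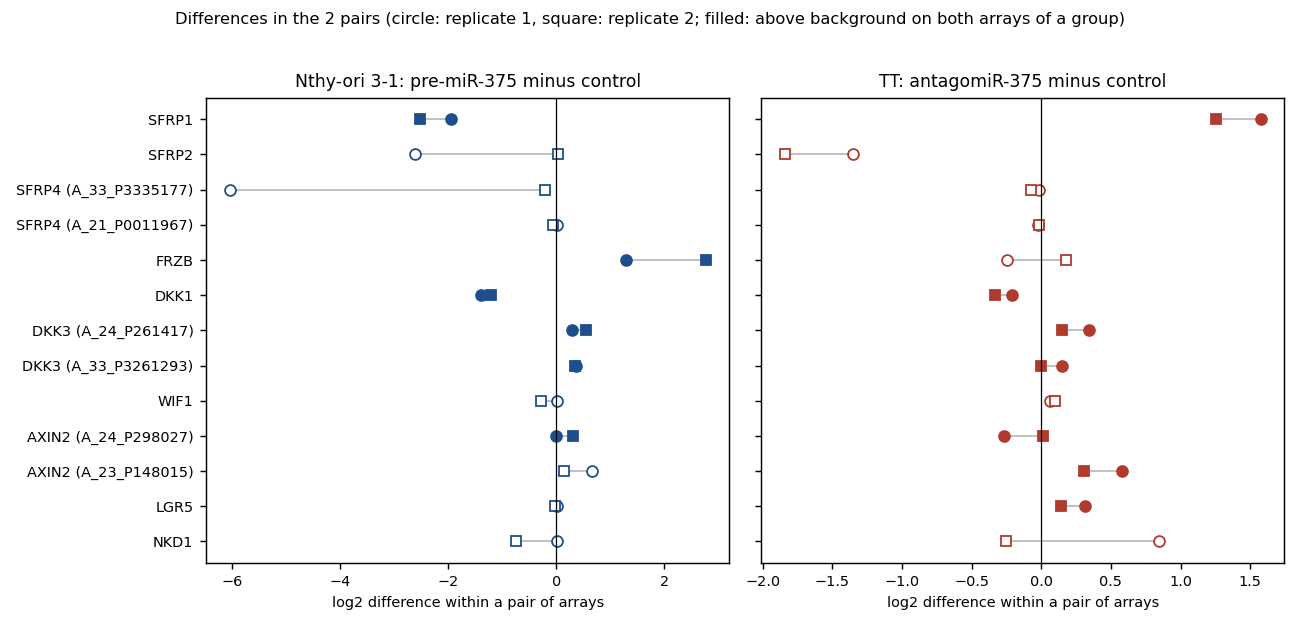
Log2 difference, treated minus control, within each pair of arrays (horizontal axis) for the 13 probes (vertical axis) in Nthy-ori 3-1 (left, blue) and TT cells (right, red), on axes of different range. Circles are replicate 1, squares replicate 2, and filled symbols are probes measured in that line. SFRP1 lies at -1.95 and -2.53 on the left and at 1.57 and 1.25 on the right, and the wide span of SFRP4 comes from 1 array.

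The control cells of the 2 lines were compared next. For these arrays line, culture, slide, RNA integrity and the dose by the labels cannot be told apart, and the control reagent may differ too. Limma called 30.1% of 50582 probes, 14.8% higher and 15.3% lower in TT cells, and 5 of the 13 member probes, 2 higher and 3 lower, for 4 genes. The control groups did not overlap for 3 member probes that were higher and 4 that were lower in TT cells, as for 37.4% and 38.5% of measured probes. LGR5 and AXIN2 were higher in TT control cells, and DKK1 and DKK3 were lower. For LGR5, with measured means of 1.73 and 9.05, the signal in TT control cells was at least 25.9-fold higher than the lowest signal well above background in Nthy-ori 3-1 control cells, with an adjusted p of 4.16e-06 from limma. DKK1 was 8.26-fold lower in TT control cells (log2 difference -3.05, SE 0.147, adjusted p of 9.3e-05 from limma). DKK3 was lower by both probes, with log2 differences of -4.16 (SE 0.229, adjusted p 0.000147 from limma) and -4.51 (SE 0.741, adjusted p 0.00752 from limma). These 4 calls, 1 for each probe, held under all 14 alternatives. The LGR5 difference of 7.33 was 3.39 with normexp, 3.75 with the median signal and 3.46 with the deposited values.

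The AXIN2 call was less firm. Probe A_24_P298027 was higher in TT control cells by 1.73 (SE 0.416), at an adjusted p of 0.0292 (limma), without overlap of the control groups. The difference ranged from 0.74 with the deposited values to 2.13 without Nthy-ori 3-1 control replicate 1. It missed the threshold under 5 of 14 alternatives, at adjusted p from limma of 0.113 without Nthy-ori 3-1 control replicate 2, 0.0975 and 0.0508 without TT control replicate 1 and 2, 0.11 with the 4 control arrays alone and 0.0523 with the deposited values. The other AXIN2 probe had a difference of 1.24 (SE 0.572), at an adjusted p of 0.187 (limma). With the deposited values it was 0.18. Without Nthy-ori 3-1 control replicate 1 it was 0.59, and without replicate 2 it was 1.90. SFRP1 had a log2 difference of -1.02 (SE 0.435, adjusted p 0.157 from limma). The value depends on which Nthy-ori 3-1 control array is kept. Without replicate 1 the difference was -1.55 at an adjusted p of 0.0429 from limma, and without replicate 2 of that group it was -0.49 at 0.446.

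**Figure D3:**
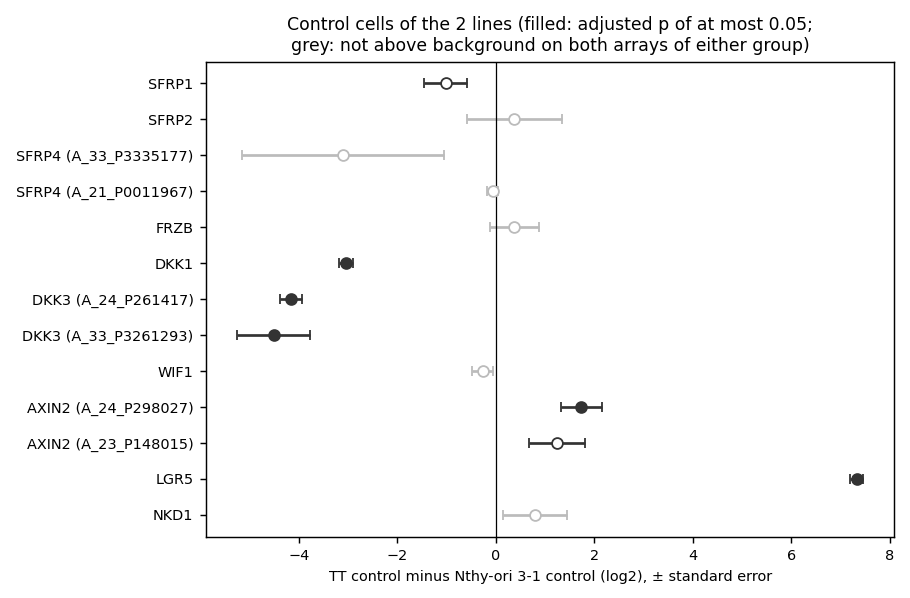
Log2 difference, TT control minus Nthy-ori 3-1 control cells (horizontal axis), with its standard error as bars, for the 13 probes (vertical axis). Filled symbols have an adjusted p of at most 0.05 and grey ones were not measured in either control group. LGR5 lies furthest right at 7.33 and both DKK3 probes furthest left at -4.16 and -4.51.

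Set in order over the 4 groups, SFRP1 was highest with antagomiR-375 in TT cells (8.96 ± 0.0163, SD, n = 2), then in Nthy-ori 3-1 control cells (8.56 ± 0.931), TT control cells (7.54 ± 0.245) and, lowest, pre-miR-375 in Nthy-ori 3-1 (6.32 ± 0.522). The first pair of neighbours overlapped and the others did not. DKK1 had the order Nthy-ori 3-1 control (10.94 ± 0.0813), pre-miR-375 (9.63 ± 0.209), TT control (7.89 ± 0.0099) and antagomiR-375 (7.62 ± 0.0926), with no overlap between neighbours. For DKK3 (A_24_P261417) and AXIN2 (A_24_P298027) the lines separated. The treated and control groups of Nthy-ori 3-1 cells overlapped for both genes, and those of TT cells overlapped for AXIN2 only.

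The 5 genes whose profile over the 8 arrays lay nearest to that of SFRP1 were HSP90AA2, GEM, HSP90AA1, ACSL3 and MAT2B, by the root mean square difference after each probe was centred on its own mean. That difference was 0.348 to 0.386 on the log2 scale, against a median of 1.22 over 16972 genes well above background on all arrays. HSP90AA1 is a cytosolic chaperone and HSP90AA2 a near-identical copy of it, so their signals may not be separable. ACSL3 activates long-chain fatty acids and MAT2B is the regulatory subunit of methionine adenosyltransferase. GEM, a small GTPase, had differences of -1.43 with pre-miR-375 and 1.05 with antagomiR-375, and MAT2B of -2.84 and 0.75.

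The rest of the pathway was described by 8 lists with 95 other genes, all of them on the array. Where a list gene has several probes, that with the highest average over the arrays stands for it, and the others are not given. In Nthy-ori 3-1 cells 70 were measured, 0 were called, and the median difference was 0.12 against 0.04 over all genes. Of these 70, 5 were higher and 4 lower by at least 1 in both pairs (7.14% and 5.71%), beside 1.55% and 2.5% of all measured genes. The 4 lower ones were MYC and CD44, both known β-catenin targets, and the ligands WNT5B and WNT7B. MYC had 11.66 and 11.92 on control arrays and 10.19 and 10.52 with pre-miR-375, a difference of -1.43 (SE 0.0829). CD44 was at -1.15, WNT5B at -1.08 and WNT7B at -1.09, each like MYC at an adjusted p of 0.318 from limma. MYC and CD44 passed under 4 of 12 alternatives, as DKK1 did, and WNT5B under 3. WNT7B was not recomputed.

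The 5 higher ones were SP5, CXXC4, WNT2B, APC2 and FRAT2. SP5 is a β-catenin target, and its signals were 4.24 and 4.51 on control arrays, not well above background, and 7.32 and 7.10 with pre-miR-375, at least 6.94-fold higher. CXXC4, a repressor that binds Dishevelled, was at least 3.19-fold higher and the ligand WNT2B at least 2.44-fold. These 3 count as measured only through the treated group. APC2, a relative of APC in the degradation complex, was higher by 1.86 (SE 0.224), and FRAT2, which holds GSK3 away from β-catenin, by 1.14 (SE 0.125). The adjusted p from limma was 0.318 for each of the 5. SP5 and MYC, both targets, thus had differences of opposite sign. FZD4, a WNT receptor, was higher by 0.97. Of 12 alternatives, APC2 passed under 4, FRAT2 under 3 and FZD4 under 2. SP5, CXXC4 and WNT2B were not recomputed for this comparison, and their folds are those of the main setting. SP5 and CXXC4 gave strong signal in TT cells, whereas FRZB was well above background on no TT array. The part of the C cell markers was not tested for any of these genes.

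In TT cells 65 of the 95 were measured and 0 called, with a median difference of 0.17 against -0.01 over all genes. Of these 65, 3 were higher and 0 lower by at least 0.6 in both pairs (4.62% and 0%), beside 2.34% and 1.44% of all measured genes. The Frizzled receptor FZD5 had 8.27 and 8.25 on control arrays and 9.70 and 9.67 with antagomiR-375. Its difference of 1.43 (SE 0.0826) had an adjusted p of 0.512 from limma. The receptor kinase ROR1 was higher by 0.99 (SE 0.111) and TCF7, a nuclear partner of β-catenin, by 0.95 (SE 0.235). The co-receptor LRP5 was higher by 0.57 in the fit, in pairs by 0.83 and 0.30. DACT1, which binds Dishevelled, APC and PORCN, the enzyme that adds the lipid to WNT, had the lowest differences, -0.55, -0.39 and -0.38. None of these passed under any of 12 alternatives, TCF7 not having been recomputed.

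**Figure D4:**
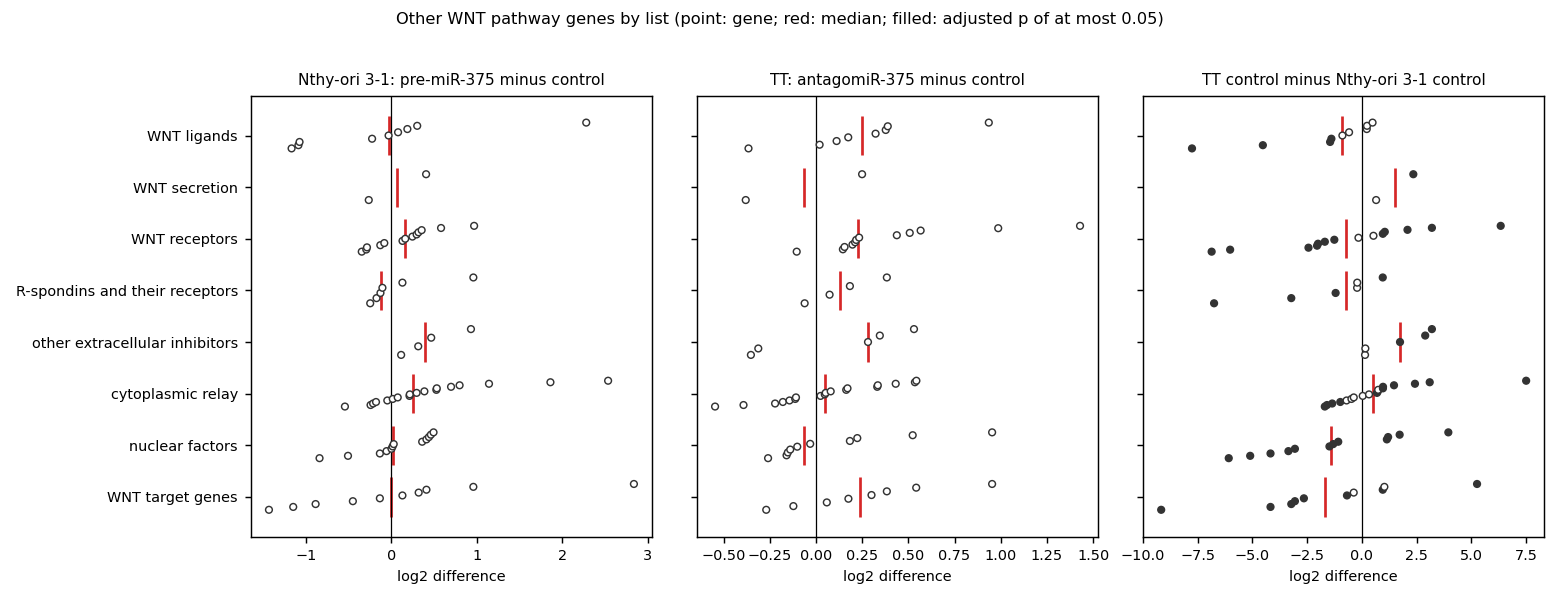
Log2 difference (horizontal axis, a different range in each panel) of each measured gene of the 8 lists (vertical axis) in the 3 comparisons. Points are genes, filled at an adjusted p of at most 0.05, and red lines are medians of the list. No point is filled in the treatment panels, and 52 genes of the 72 measured are called in the comparison of the lines.

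Between the control cells of the lines, 23 of 72 measured list genes were called higher in TT cells and 29 lower (31.9% and 40.3%), against 24% and 22.4% of all measured genes. All 12 nuclear factors were called, 4 higher and 8 lower. TLE2 was higher by 3.95 (adjusted p 4.12e-05 from limma), and its fellow Groucho co-repressor TLE4 was lower, with a log2 difference of -5.11 (adjusted p 0.000228 from limma). LEF1 was at least 6.15-fold and PYGO1 at least 20.7-fold higher in Nthy-ori 3-1 cells. Of the target genes, 2 of 10 measured were called higher and 6 lower in TT cells. SP5 was at least 37.3-fold higher there, as AXIN2 and LGR5 were higher, whereas CD44 was lower by 9.17 on the log2 scale, from a mean of 13.94 to 4.77. Under the alternatives that keep more of the background the SP5 difference of 5.26 was as small as 3.25, that of TLE4 -3.25 and that of CD44 -7.45, all still called.

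Of 9 measured ligands, 4 were called lower in TT control cells and 0 higher, where 22.4% and 24% of all measured genes were. The counts of the lists that follow stand beside the same shares. WNT5A, a ligand of β-catenin-independent signalling, was at least 80.7-fold higher in Nthy-ori 3-1 cells, and WNT5B had a log2 difference of -4.53. The receptors went both ways, 5 higher and 7 lower of 14. FZD7 was at least 48.6-fold and ROR2, a receptor for WNT5A, at least 26.8-fold higher in Nthy-ori 3-1 cells, and FZD8 was at least 13.5-fold higher in TT cells. The R-spondin RSPO4 was at least 34.8-fold higher in Nthy-ori 3-1 cells, the line in which LGR5 was not well above background. Other R-spondin receptors, LGR4 and LGR6, were well above background in both lines. Their means were 9.17 and 8.48 in Nthy-ori 3-1 control cells, against 7.97 and 8.27 in TT control cells. The control groups did not overlap for LGR4, which was lower in TT cells, and overlapped for LGR6. Of the other extracellular inhibitors, 3 of 5 measured were called higher in TT cells and 0 lower, among them DKK4, at least 1.56-fold. CXXC4 was at least 100-fold higher in TT cells in the main setting. Its difference of 7.51 was as small as 4.73 and that of WNT5B -3.25 under the same alternatives, both still called, and the bounds themselves were not recomputed. Apart from LGR4 and LGR6, none of the ligands, receptors and inhibitors named here had an adjusted p above 0.00821 in limma.

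**Figure D5:**
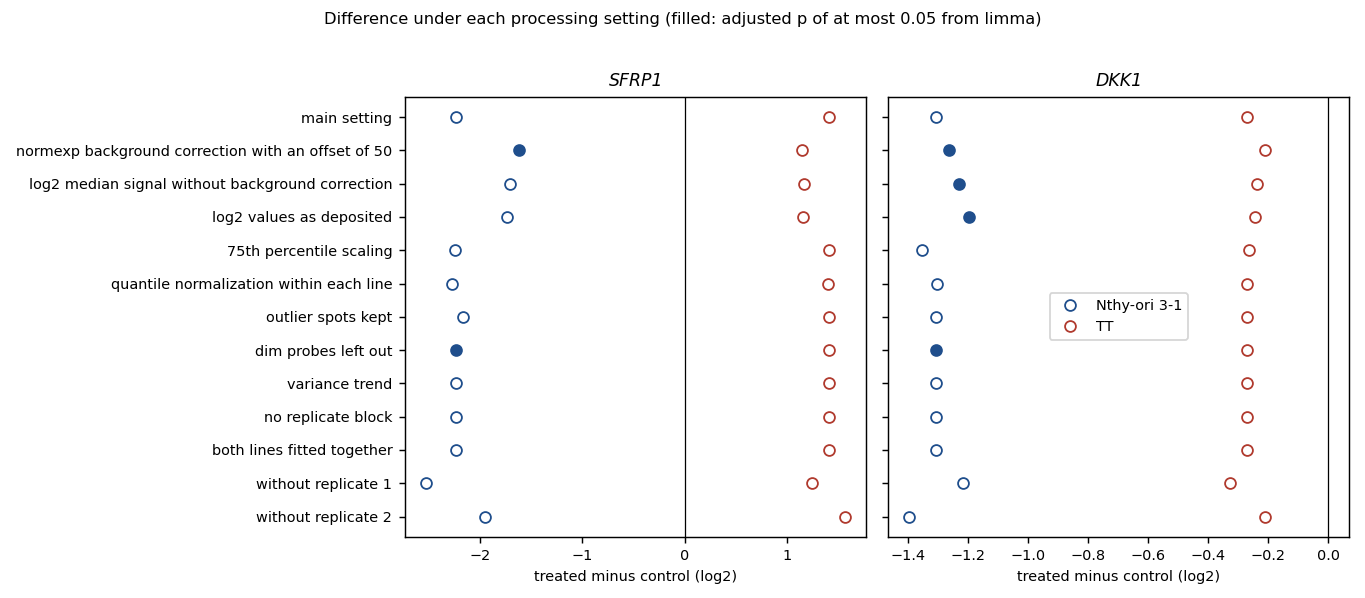
Log2 difference, treated minus control (horizontal axis), of SFRP1 (left) and DKK1 (right) in Nthy-ori 3-1 (blue) and TT cells (red) under each processing setting (vertical axis). Filled symbols have an adjusted p (limma) of at most 0.05. SFRP1 stays between -2.53 and -1.62 in Nthy-ori 3-1 and between 1.15 and 1.57 in TT cells, and is filled under 2 settings.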

How the data were processed

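Per array the authors deposited Feature Extraction 10.10.1.1 output with spot intensity (processed, mean and median signal and background), not normalized between arrays. They also deposited a table of log2 values, which followed the log2 median signal (Spearman rho 1) with column medians of 6.65 in Nthy-ori 3-1 and 6.39 in TT cells. It was read as quantile normalized within each line without background correction. Here processed signals were taken to log2, control and outlier spots (341 to 428 per array) left out, spots of a probe averaged and the 8 arrays quantile normalized in limma 3.58.1 (R 4.3.3). Saturated spots numbered 0.

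Each line was fitted alone with the replicate number as a block, since equal numbers shared a slide. Same-numbered arrays deviated together (r = 0.785 in Nthy-ori 3-1 and 0.33 in TT cells). The lines were compared over all 8 arrays with slide as a random block (correlation 0.5), and the difference of effects with slide as a fixed block. P-values were adjusted by Benjamini-Hochberg over all probes and called at 0.05. The methods call replicates biological and the labels do not. The number of arrays limits the precision.

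Members and lists were chosen with earlier results of these data known. Of list genes, those with the 3 largest differences each way, at an average of at least 6 and with agreeing pairs, were named, and the 5 genes most like SFRP1. TCF7, WNT2B, WNT7B, LGR4, LGR6 and all genes given as "at least" a fold, apart from CXXC4 and SP5 between the lines, were named after their values were seen. For each such fold, the bright group's mean was set against, per array, the higher of the dim probe's signal and the lowest signal well above background. These folds were computed in the main setting only. Probe coordinates are those of the array annotation, and exon and UTR positions were not determined. The labels give polyA RNA and the methods total RNA. Alternatives were normexp with an offset of 50, the median signal, the deposited values, 75th percentile scaling, normalization within each line, outlier spots kept, dim probes left out, a variance trend, other blocks and samples, and each replicate left out. The values of 1 marker gene are not reported here. The steps were tested on simulated data.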

Additional observations from a re-analysis of the deposited data

How the results depend on the processing

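In Nthy-ori 3-1 cells limma called 0 probes in the main setting, 1560 with normexp, 517 with the median signal, 577 with the deposited values and 999 with dim probes left out. SFRP1 was then -1.62 with normexp and -2.24 with dim probes left out, both past the threshold. In TT cells the median signal gave 10 calls and each other alternative 0. For the difference of the effects 2600 probes were called with normexp, 1714 with the median signal, 1682 with the deposited values and 912 with a variance trend, and SFRP1 was -2.77, -2.88, -2.90 and -3.66 there, past the threshold each time. Between the control cells SFRP1 passed with the deposited values, at -1.18. The causes were not tested. Calls between the lines numbered 12192 to 21985. With the deposited values and with normalization within each line the median difference of all probes was -0.31 and -0.46 against -0.05, and 25.5% and 30% of calls were higher in TT cells against 49.2%.

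Leaving out replicates gave SFRP1 differences of -2.53 to -1.95 in Nthy-ori 3-1 cells, 1.25 to 1.57 in TT cells, -1.55 to -0.49 between the lines and -3.95 to -3.37 for the difference of effects, with 0 calls in the treatment comparisons and 12192 to 13663 between the lines. A lone array was assumed to vary like the others. Without the replicate block the SFRP1 differences were -2.24, 1.41 and -3.66, and with it between the lines -1.02, with 16031 probes called there; it changed no call of a named gene. The sign turned for values close to 0 that were called in no setting. In TT cells AXIN2 (A_24_P298027) was 0.014 without replicate 1 and -0.27 without replicate 2, and DKK3 (A_33_P3261293) was -0.004 and 0.147. For the difference of effects AXIN2 (A_23_P148015) was 0.081 with 75th percentile scaling, 0.007 with normalization within each line, 0.096 without TT replicate 1, and 0.216 without Nthy-ori 3-1 replicate 2 against -0.294 without replicate 1. Of 586 alternative values of single genes, 540 kept direction and side of the threshold, 35 newly passed it, 5 no longer did and 6 turned sign. Of members not measured in either control group, limma called SFRP4 and WIF1 between the lines with the deposited values and with normalization within each line, SFRP2 without Nthy-ori 3-1 control replicate 1 and SFRP4 without replicate 2.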
